A study of Homo sapiens with 52 samples.

Results

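Ribosome footprints of HEK293T cells that lack MCTS1 were set against those of wild type cells. The 4 MCTS1 knockout (KO) libraries, 2 from each of the KO lines #1 and #2, called clones here, and the 2 wild type (WT) libraries were taken by their labels, which makes 6 of the 42 libraries in the deposited table. HEK293T is a transformed human embryonic kidney line. Cells of every group were grown in the same medium with serum and antibiotics, neither KO nor WT cells were labelled with a further treatment, and the labels do not say how the KO lines were made or whether each is 1 clone. Ribo-seq sequences the short mRNA fragments that ribosomes shield from RNase I, here after cycloheximide was added to the lysate, so a transcript's count reflects how many ribosomes sat on it. More ribosomes on each mRNA and more mRNA cannot be told apart from footprints alone, nor can a change in each cell from one in some of the cells.

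MCTS1 and DENR form a complex that binds the small ribosomal subunit, and eIF2D holds similar domains in 1 protein. After termination these factors help to remove the last tRNA from the small subunit and to recycle that subunit. The complex is also known to let ribosomes start again downstream of some short upstream reading frames, among them those that control the stress factor ATF4. Footprint counts in MCTS1 KO cells thus ask which mRNAs gained or lost ribosomes when the complex lacks 1 partner.

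The values are counts per transcript identifier, and neither the table nor the gene tables used here pair these identifiers with gene names. The level of MCTS1 itself, HEK293T markers and lists of genes were therefore not checked, and at most 2 transcripts that rose and 2 that fell are given by identifier. Transcripts of a gene can share reads, so a count of transcripts is larger than the count of genes behind it. Of 226882 transcripts in the table, 115412 passed the filter on low counts in the Ribo-seq comparison. Library totals were 193940882 and 148159238 counts in clone #1, 29624164 and 28668241 in clone #2, and 25785993 and 53386368 in WT. Replicates of clone #1, clone #2 and WT differed by 7.13, 1.56 and 5.51 times counting noise, so within these groups no library was counted as a repeat of the other. That ratio grows with depth, so it does not rank how well replicates match. The SD of the log2 ratio between replicates was 0.329 in clone #1, 0.399 in clone #2 and 0.447 in WT. Whether they share an extract or culture was not tested.

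A small minority of transcripts were called as changed in footprint count in the mean of the 2 MCTS1 KO clones, mostly by less than 2-fold. The number called depended on which libraries were used, so it is not the number that changed. With edgeR's quasi-likelihood test and an adjusted p under 0.05, 3089 transcripts were higher (2.68% of those tested) and 3961 lower (3.43%) in MCTS1 KO than in WT, or 7050 in all (6.11%). The median log2 change was 0.51 among those higher and -0.48 among those lower, against -0.0091 over all tested. At least 2-fold changes numbered 325 and 604. For 233 and 434 of these calls the estimates of the 2 clones had opposite signs, so a call in the mean is not a call in each clone. Leaving out WT library 1 kept the numbers of higher and lower transcripts within 1.5 times. Without WT library 2 the counts were 7454 and 7947. Without library 1 or 2 of clone #1 they were 1942 and 2616, or 1891 and 2511. Without library 1 or 2 of clone #2 they were 1323 and 1734, or 1044 and 1489. Whether the libraries of a group are separate cultures is not stated in the labels, and the p-values then reflect only how much these libraries vary, which may be technical. Averaging the clones also leaves the spread between clones out of the p-value.

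The clones differed in how many transcripts were called. Clone #1 alone had 9160 transcripts higher (7.94%) and 10058 lower (8.71%) than WT, which is 16.7% of those tested. Clone #2 alone had 2063 higher (1.79%) and 2115 lower (1.83%), which is 3.62%. Among called changes the medians on the log2 scale were 0.60 and -0.58 for clone #1, and 0.61 and -0.60 for clone #2. These cover only changes that passed the threshold, so they do not compare the sizes of change in the 2 clones. Over all tested transcripts, called or not, the estimated change was at least 2-fold for 5510 in clone #1 and 3525 in clone #2. These include weakly covered transcripts, whose estimates carry large standard errors, so they do not compare the sizes of change either. Depth moved with the gap in calls. When each library was thinned at random to the smallest total of 25785993 counts, clone #1 had 12595 calls in place of 19218. Clone #2 then had 4008 in place of 4178. Clone #1 thus still had more calls than clone #2 when library totals were matched. Other properties of the libraries were not matched. Leaving out WT library 1 kept the calls of each clone within 1.5 times. Clone #1 had 9303 or 9567 calls without its library 1 or 2. Clone #2 had 1068 or 938 without its library 1 or 2, and 12817 without WT library 2.

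Calls were more frequent among transcripts with many footprints. Levels for this were taken from the 2 control siRNA Ribo-seq libraries, which are outside the comparison. In the quartile of highest level, with a median of 13.5 CPM (counts scaled to a common library total), 27.1% of transcripts were called in clone #1, and 8.43% were in clone #2. In the quartile of lowest level, with a median of 0.386 CPM, 8.58% and 0.95% were called. The median size of the log2 change, called or not, was 0.171 in clone #1 and 0.128 in clone #2 in the highest quartile. In the lowest it was 0.396 and 0.361. The median standard error of the log2 change was 0.101 and 0.109 in the highest quartile, for clone #1 and clone #2, and 0.38 and 0.465 in the lowest. Small changes of weakly covered transcripts were therefore not detectable at this depth, in clone #2 least of all.

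**Figure D1:**
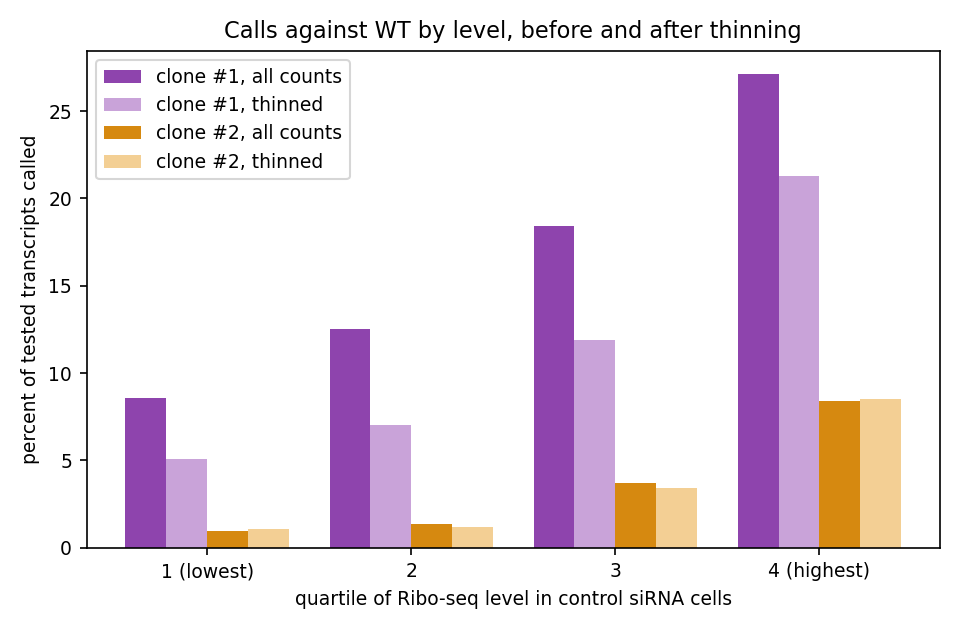
Percent of tested transcripts called against WT in each MCTS1 KO clone (edgeR, adjusted p under 0.05), by quartile of Ribo-seq level in control siRNA cells, with all counts and after thinning each library to the smallest total. The share grows with level in both clones, and in the highest quartile it is 27.1% for clone #1 and 8.43% for clone #2 with all counts, and 21.3% and 8.51% after thinning.

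Transcripts that passed the test in each clone alone and moved the same way were given priority. 559 transcripts were higher in both clones (0.484% of those tested) and 551 were lower in both (0.477%), together 0.962%. Both contrasts use the same WT libraries, which favours the same direction, so these counts describe the transcripts that meet the rule and do not show how far the clones agree. Transcripts whose replicate deviations correlate above 0.95 were put in 1 group, as a stand-in for shared reads. This gave 330 and 370 groups, 234 and 273 of which hold 1 transcript. Shared reads themselves were not seen, and transcripts in separate groups may still share reads. Median log2 changes of those higher in both were 0.75 in clone #1 and 0.56 in clone #2, and of those lower in both -0.53 and -0.57. In 41 of the rises and 69 of the falls the change was at least 2-fold in each clone. All 559 rises and 550 of the 551 falls had the 4 KO libraries beyond both WT libraries, which the choice of members by these same libraries largely fixes. Over all tested transcripts the shares were 11% and 10.1%, and nothing is read from the difference. Leaving out WT library 1 kept the numbers that met the rule within 1.5 times. Without WT library 2, 3186 and 2883 transcripts met the rule. Without library 1 or 2 of clone #1 the counts were 341 and 294, or 323 and 299, and without library 1 or 2 of clone #2 they were 125 and 78, or 100 and 104.

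**Figure D2:**
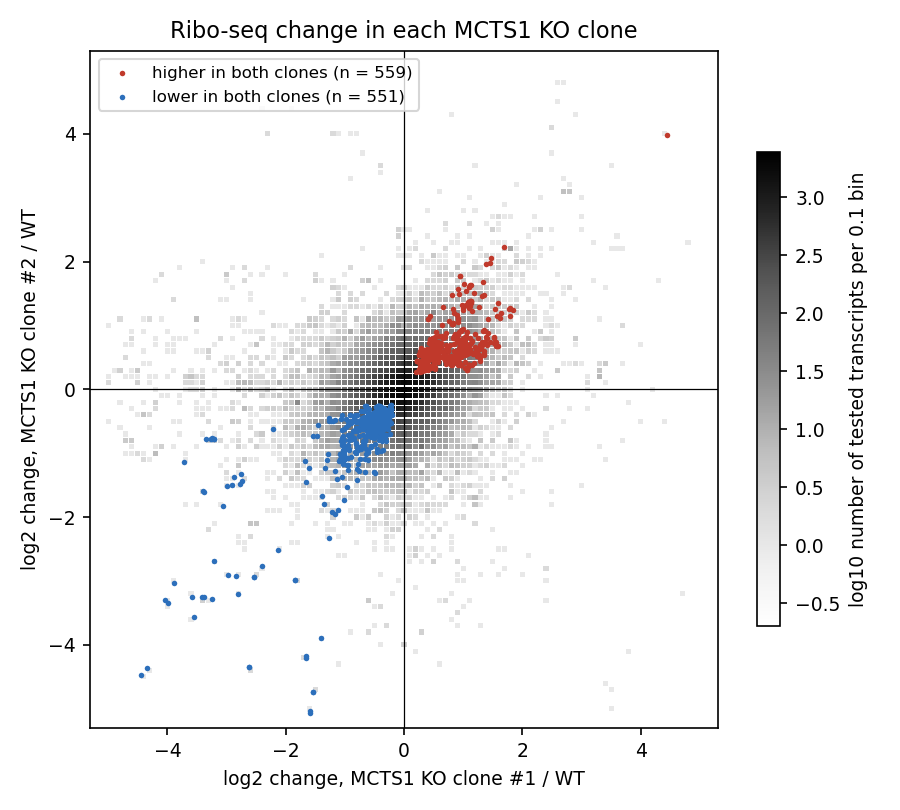
Log2 change of Ribo-seq counts in MCTS1 KO clone #1 (x axis) and clone #2 (y axis) against the same 2 WT libraries. Grey squares are bins of all tested transcripts within 5 on each axis, and coloured points are the 559 transcripts higher and the 551 lower in both clones. Both clones share the WT libraries, so the spread along the diagonal is partly set by them.

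As a share of all counts, the transcripts higher in both clones held 3.37% and 3.44% of the libraries of clone #1 and 3.00% and 2.99% of those of clone #2, against 2.13% and 2.26% in WT. Those lower in both held 1.44% and 1.43% in clone #1 and 1.54% and 1.53% in clone #2, against 2.11% and 1.93% in WT. KO and WT libraries do not overlap in either share, which the choice of members fixes. In cells with control siRNA, which carry no MCTS1 knockout, the same sets held 2.69% and 2.65%, and 1.90% and 1.92%. For the rises, control siRNA cells stood between WT and the KO clones. For the falls they stood just below WT. The sets were chosen against these same WT libraries, which by itself favours control values on the KO side of WT. Nothing is therefore read from where the controls stand. Between these controls and WT, transfection and other differences in culture cannot be told apart.

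The size of the shared changes differed between the clones for a part of them. In a test of clone #1 minus clone #2 (edgeR, adjusted p under 0.05), 199 of the 559 rises (35.6%) and 88 of the 551 falls (16%) differed between the clones. Of all tested transcripts, at any level, 18.6% did (8.83% higher and 9.76% lower in clone #1). That background is not matched by level. Of the rises 334 and of the falls 364 lay in the quartile of highest level, where calls against WT were most frequent. Among the rises, 173 of the 199 were larger in clone #1 and 26 in clone #2. Among the falls, 53 of the 88 were larger in clone #1 and 35 in clone #2.

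Named transcripts are those with the largest change in the clone that changed less, among the 400 rises and 361 falls that average at least 5 CPM over the 6 Ribo-seq libraries. ENST00000455134.1 led the rises. It had 2377 and 1947 counts in clone #1 and 375 and 337 in clone #2, against 139 and 371 in WT. Scaled to library totals this was 12.3 and 13.1 CPM in clone #1 and 12.7 and 11.8 CPM in clone #2, against 5.39 and 6.95 CPM in WT, so the 4 KO libraries lie close together and above both WT libraries. The log2 change was 0.98 ± 0.11 (SE, edgeR adjusted p = 3e-06), with 1.00 in clone #1 and 0.95 in clone #2, and the clones did not pass the test of a difference (log2 difference 0.05 ± 0.11, adjusted p = 0.81).

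This transcript had no reads in RNA-seq. All 6 RNA-seq libraries of the same groups, made from total RNA extracts, held 0 counts, which allows up to 0.0376 CPM in the shallowest of them, for counting error only. TCP-seq, which captures fragments shielded by ribosomal complexes, held 0 and 1 counts in clone #1 and 0 and 3 in clone #2, against 0 and 1 in WT. Whether the Ribo-seq fragments of ENST00000455134.1 come from translating ribosomes was not tested. With siRNA against DENR it had 7.47 and 6.31 CPM (siRNA #1) and 7.15 and 6.35 CPM (siRNA #2), against 9.42 and 9.48 CPM with control siRNA, a fall of 0.48 ± 0.13 on the log2 scale (SE, edgeR adjusted p = 0.0075). DENR depletion and MCTS1 knockout therefore moved it in opposite directions. Its control siRNA level lay above both WT libraries, and against the control siRNA libraries in place of WT the log2 change in MCTS1 KO was 0.42 (adjusted p = 0.00028).

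ENST00000537408.1 was second among the rises. It had 9.91 and 11 CPM in clone #1 and 7.70 and 7.78 CPM in clone #2, against 3.80 and 4.21 CPM in WT. Clone #1 stood above clone #2, and both stood above WT. The log2 change was 1.14 ± 0.11 (SE, edgeR adjusted p = 6.5e-07), and it was larger in clone #1 than in clone #2 by 0.42 ± 0.11 (adjusted p = 0.011). RNA-seq showed the same order, with 7.84 and 7.56 CPM in clone #1 and 5.37 and 5.07 CPM in clone #2, against 3.79 and 3.26 CPM in WT, a log2 change of 0.85 ± 0.08 (SE, edgeR adjusted p = 1.8e-14). After DENR depletion its Ribo-seq log2 change was 0.18 ± 0.16 (SE, edgeR adjusted p = 0.57).

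ENST00000493274.5 led the falls and had the largest shared loss at this level. It had 516 and 366 counts in clone #1 and 68 and 45 in clone #2, against 480 and 917 in WT. In CPM this was 2.66 and 2.47 in clone #1 and 2.30 and 1.57 in clone #2, against 18.6 and 17.2 in WT. All 4 KO libraries lie far below both WT libraries. The log2 change was -3.01 ± 0.11 (SE, edgeR adjusted p = 1.1e-14), with -2.81 in clone #1 and -3.21 in clone #2.

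In RNA-seq ENST00000493274.5 fell by less. It had 2.62 and 2.70 CPM in clone #1 and 2.28 and 2.47 CPM in clone #2, against 7.58 and 8.54 CPM in WT, a log2 change of -1.68 ± 0.07 (SE, edgeR adjusted p = 5.1e-29). In TCP-seq it went the other way, with 15 and 11 counts in clone #1 and 12 and 33 in clone #2, against 6 and 6 in WT libraries 3 and 4. That is 7.62, 6.84, 3.64 and 8.56 CPM in KO, against 2.45 and 3.16 CPM in WT, a log2 change of 1.21 ± 0.44 (SE, edgeR adjusted p = 0.041) that rests on few counts. Neither clone alone passed the test in TCP-seq (adjusted p = 0.089 and 0.085). After DENR depletion its Ribo-seq log2 change was -0.08 ± 0.10 (SE, edgeR adjusted p = 0.68).

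ENST00000371315.3 followed, and its replicate deviations over 24 RNA-seq and Ribo-seq libraries correlated with those of ENST00000493274.5 at 0.941, so the 2 may share many reads. It had 4.15 and 4.01 CPM in clone #1 and 3.41 and 2.72 CPM in clone #2, against 24.4 and 22.5 CPM in WT. The log2 change was -2.74 ± 0.10 (SE, edgeR adjusted p = 6.2e-15), and it was larger in size in clone #2 than in clone #1 (log2 difference 0.40 ± 0.13 for clone #1 minus clone #2, adjusted p = 0.037). In RNA-seq it had 3.23 and 3.41 CPM in clone #1 and 3.34 and 3.40 CPM in clone #2, against 9.13 and 10.4 CPM in WT, a log2 change of -1.55 ± 0.07 (SE, edgeR adjusted p = 2.8e-29). In TCP-seq its log2 change was 0.74 ± 0.38 and did not pass the test (SE, edgeR adjusted p = 0.18). After DENR depletion it had 18.6, 17.6, 20.9 and 21.3 CPM, against 21.0 and 21.2 CPM with control siRNA, and did not pass the test (adjusted p = 0.37). Whether either transcript belongs to MCTS1, the knocked out gene, was not checked.

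**Figure D3:**
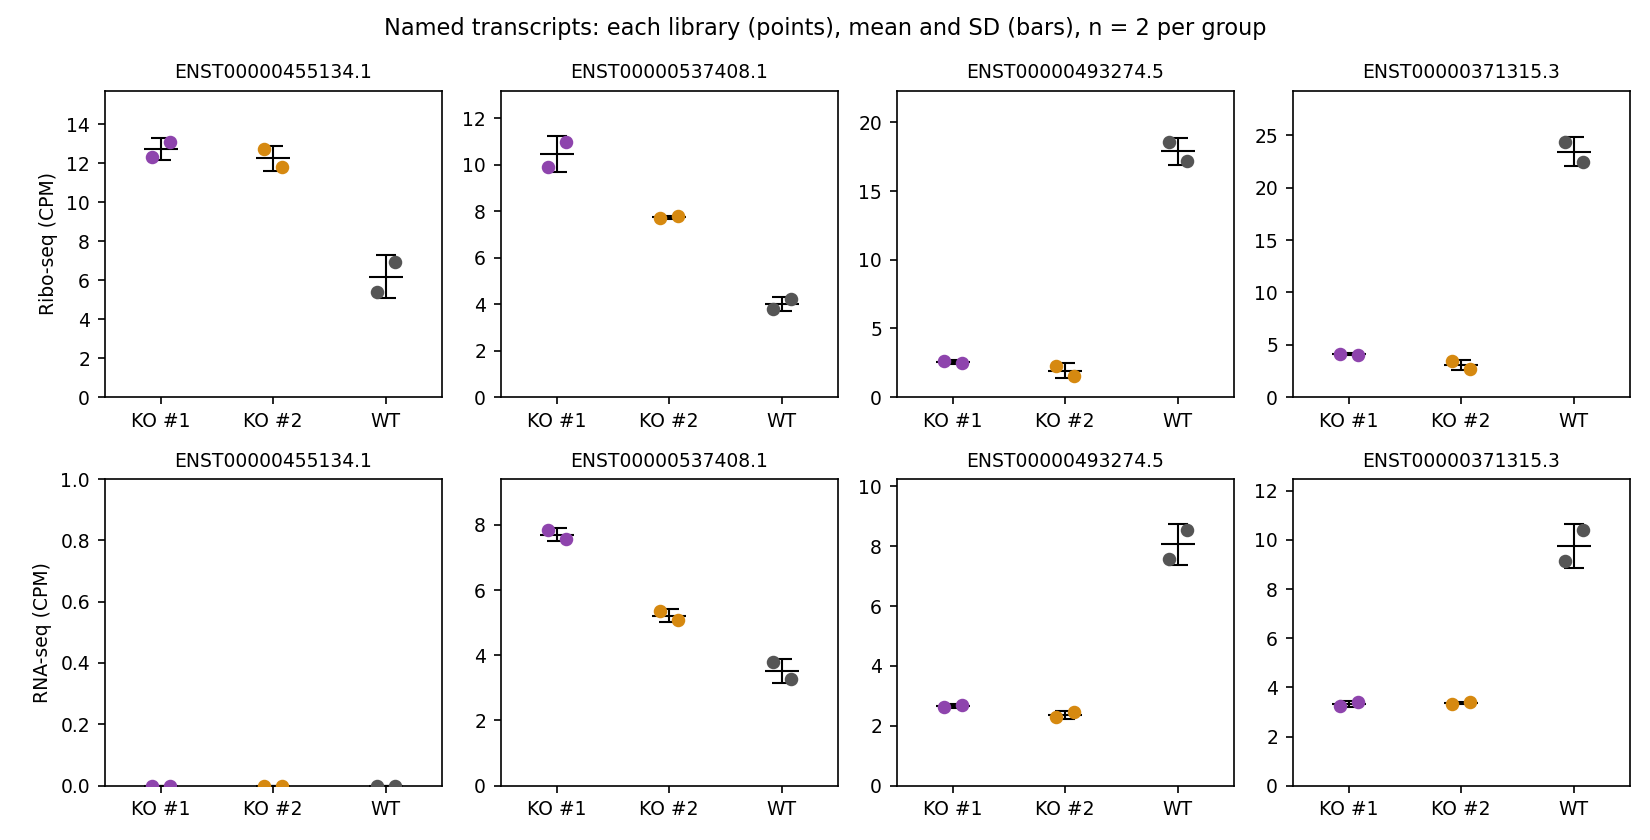
CPM of the 2 leading rises and 2 leading falls in each Ribo-seq library (top row) and RNA-seq library (bottom row) of MCTS1 KO clone #1, clone #2 and WT. Points are libraries, bars are the mean and SD (n = 2 per group), and each panel has its own axis from 0. ENST00000455134.1 is listed at 0 in all 6 RNA-seq libraries.

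The next groups in the ranking show different pairings of ribosomes and mRNA. Each group is represented by its member with the largest change in the clone that changed less, and all values given are those of that transcript alone. The third group of falls had 4.56 and 4.51 CPM in clone #1 and 3.81 and 3.14 CPM in clone #2, against 24.5 and 22.8 CPM in WT, a log2 change of -2.59, and its RNA-seq log2 change was -1.07 in clone #1 and -0.93 in clone #2. In TCP-seq its log2 change was -0.16 (edgeR adjusted p = 0.66). Its deviations correlated with those of the first and second group at 0.688 and 0.777, so these 3 may share reads as well. Of these 3, only the first was called higher in TCP-seq. The fourth group of falls had 983 and 725 counts in clone #1 and 130 and 111 in clone #2, against 289 and 562 in WT, which is 5.07, 4.89, 4.39 and 3.87 CPM in KO against 11.2 and 10.5 CPM in WT. Its footprints fell by 1.27 on the log2 scale (edgeR adjusted p = 3.5e-08), and its RNA-seq log2 change was -0.09 (adjusted p = 0.58), with 3.29, 2.54, 2.59 and 2.47 CPM in KO against 2.84 and 2.98 CPM in WT. RNA-seq libraries of the 2 genotypes overlap for this group. Its Ribo-seq libraries do not, which the choice by these same libraries largely fixes. Of all tested transcripts, 10.1% had every KO library below both WT libraries in Ribo-seq. Nothing is therefore read from the contrast in overlap between the assays.

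The transcript that represents the seventh group of falls, which holds 3, was lower in each of the 4 comparisons. Its log2 changes were -0.86 in Ribo-seq, -0.95 in RNA-seq and -1.32 in TCP-seq of MCTS1 KO (edgeR adjusted p = 6.9e-06, 2.1e-26 and 0.0014) and -1.16 in Ribo-seq after DENR depletion (adjusted p = 1.7e-10). The transcript that represents the eighth, which holds 6, fell in both clones by very different amounts. It had 2.76 and 2.83 CPM in clone #1 and 15.6 and 14.4 CPM in clone #2, against 27.3 and 24.0 CPM in WT. Among the rises, the transcript that represents the seventh group, which holds 2, was also higher after DENR depletion (log2 change 1.19, edgeR adjusted p = 0.013). Its log2 change in MCTS1 KO Ribo-seq was 0.92 (edgeR adjusted p = 8.7e-05).

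RNA-seq of the same lines, from other libraries, moved with most of the shared footprint changes. Of the 559 transcripts higher in both clones, 528 could be tested in RNA-seq, and 456 of these (86.4%) were higher there in the mean of the clones, 3 were lower and 69 were not called. In RNA-seq as a whole 11.4% of transcripts were higher, and 19.1% of those that average at least 5 CPM in Ribo-seq. Of the 551 lower in both, 490 were tested in RNA-seq, and 438 (89.4%) were lower there, 3 were higher and 49 were not called, where 13.5% of all and 23.2% of those at 5 CPM were lower. These shares lie far above the background of the assay. The KO lines are the same in both assays, so a change in 1 line is seen by both.

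Footprint changes tended to be larger than mRNA changes in the transcripts chosen by their footprints. The median log2 change of the rises was 0.64 in Ribo-seq and 0.52 in RNA-seq, and that of the falls -0.54 and -0.42. The change was larger in Ribo-seq for 412 of 528 rises (78%) and 373 of 490 falls (76.1%). Selection on the Ribo-seq change favours this, and the difference between the assays was not tested here. By clone, the RNA-seq medians were 0.62 and 0.41 for the rises and -0.44 and -0.42 for the falls, in clone #1 and clone #2.

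A smaller set changed in Ribo-seq with no call in RNA-seq. Among the 69 rises and 49 falls of this kind the RNA-seq medians were 0.08 and -0.05, beside Ribo-seq medians of 0.56 and -0.63. 18 of these rises, in 16 groups of shared reads, and 11 of these falls, in 7 groups, changed at least 2-fold in Ribo-seq. The rises lay at 0.305 to 1.1 CPM, near the limit of the filter, and the falls at 0.345 to 6.66 CPM. The 3 rises with lower mRNA had a median RNA-seq log2 change of -1.63, and the 3 falls with higher mRNA one of 2.57, with median RNA-seq levels of 1.14 and 0.263 CPM.

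**Figure D4:**
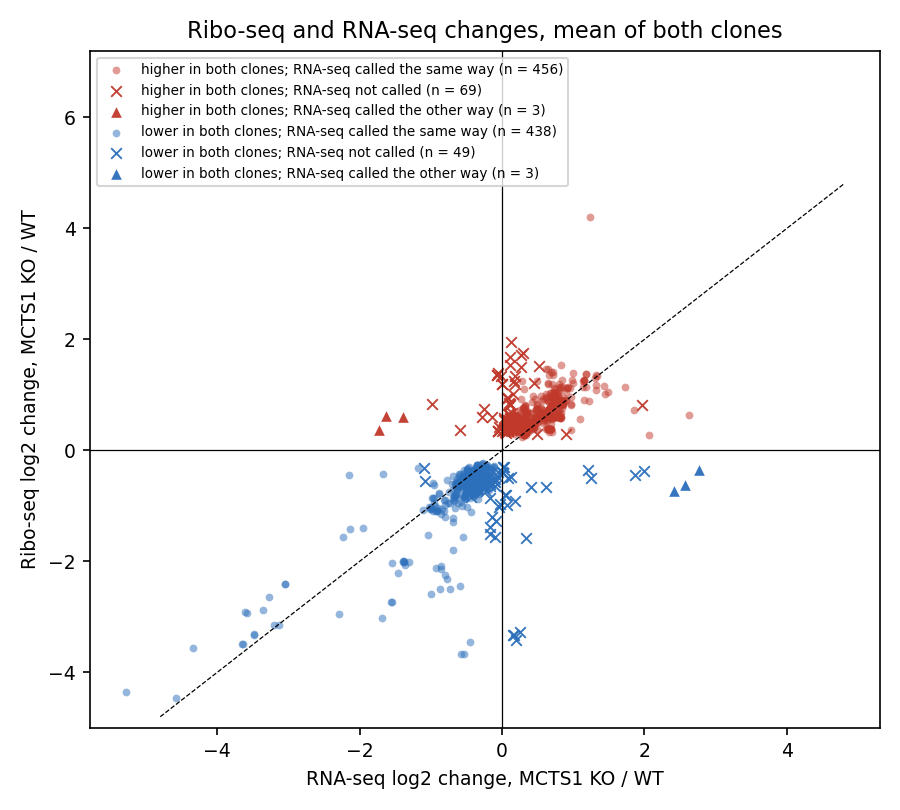
Log2 change in RNA-seq (x axis) and Ribo-seq (y axis), MCTS1 KO over WT, mean of both clones, for the transcripts called the same way in both clones in Ribo-seq and tested in RNA-seq. Red marks rises and blue falls, circles are called the same way in RNA-seq, crosses not called, triangles called the other way, and the dashed line marks equal change. 456 rises and 438 falls are circles.

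Some of the shared changes were in transcripts with almost no reads in RNA-seq. Of the transcripts at 5 CPM or more in Ribo-seq, 39 of 361 falls (10.8%) and 28 of 400 rises (7%) did not pass the filter on low counts in RNA-seq, against 4.27% of all 33714 tested transcripts at that level. At any Ribo-seq level the shares were 11.1% of the falls and 5.55% of the rises, against 5.77% of all tested transcripts. The excess of the rises was thus seen only at 5 CPM or more. At any level, the median highest RNA-seq count was 1 for the 61 falls and 2 for the 31 rises of this kind. They fell into 59 and 29 groups of shared reads, where a group holds transcripts whose replicate deviations correlate above 0.95, and transcripts in separate groups may still share reads. For them the footprint change cannot be set beside an mRNA change. Neither their type nor the source of their fragments was tested.

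TCP-seq of the MCTS1 KO clones, at 1609303 to 3853825 counts a library, could test fewer of them. Of the rises 394 were tested, and 157 (39.8%) were higher in TCP-seq and 9 lower, where 8.5% of all TCP-seq transcripts and 11.1% of those at 5 CPM in Ribo-seq were higher. Of the falls 297 were tested, and 62 (20.9%) were lower and 3 higher, where 8.79% and 7.94% were lower. Median TCP-seq log2 changes were 0.45 and -0.30.

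DENR depletion was measured in other libraries with their own controls. Of 553 rises tested, 67 (12.1%) were higher and 86 (15.6%) lower after siRNA against DENR, where 9.36% and 12.5% of all transcripts at 5 CPM were (4.37% and 6.05% at any level). Of 546 falls, 141 (25.8%) were lower and 40 (7.33%) higher. Median log2 changes were 0.07 for the rises and -0.12 for the falls, against -0.02 over all transcripts. The rises and falls are of any level, and 400 of all 559 rises and 361 of all 551 falls average at least 5 CPM. Neither background is thus matched to them by level. For the rises these shares lie near those of all transcripts at 5 CPM and above those at any level. For the falls the share that was lower lies above both. The designs differ both in the protein targeted and in the method, and these cannot be told apart.

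Some transcripts moved in opposite directions in the clones, each past the threshold. 177 were higher in clone #1 and lower in clone #2 (0.153% of those tested), with median log2 changes of 0.44 and -0.53. A further 155 were lower in clone #1 and higher in clone #2 (0.134%), with medians of -0.47 and 0.60, which makes 0.288% of either kind. RNA-seq had the same pattern for 132 of the 176 tested of the first kind (75%) and 112 of the 147 of the second (76.2%), where 1.19% and 1.78% of all RNA-seq transcripts have it. RNA-seq medians were 0.41 and -0.50 for the first kind, and -0.46 and 0.59 for the second, close to those in Ribo-seq.

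A core of the shared changes met the rule whichever 1 of the 6 libraries was left out. 60 of the 559 rises and 45 of the 551 falls met the rule in each of the 6 fits that left out 1 library. This set was formed after the data had been seen. The rises lie in 31 groups of shared reads, at a median of 76.1 CPM and a median log2 change of 0.78, and the falls in 25 groups, at 10.1 CPM and -1.01. In RNA-seq 48 of 50 rises tested were higher and 37 of 43 falls lower, and none was called the other way. Over all transcripts that average at least 5 CPM in Ribo-seq, 19.1% were higher and 23.2% lower in RNA-seq, a background not matched by level. After DENR depletion 6 of the 60 rises were higher and 35 lower, with a median log2 change of -0.26, and of 41 falls tested 8 were lower and 9 higher. Over all transcripts at 5 CPM or more, 9.36% were higher and 12.5% lower after DENR depletion. Calls are more frequent at high level, where these rises lie, and members of a group of shared reads are not independent. 48 of the 60 rises and 15 of the 45 falls differed in size between the clones, where 18.6% of all tested transcripts, at any level, did.

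**Figure D5:**
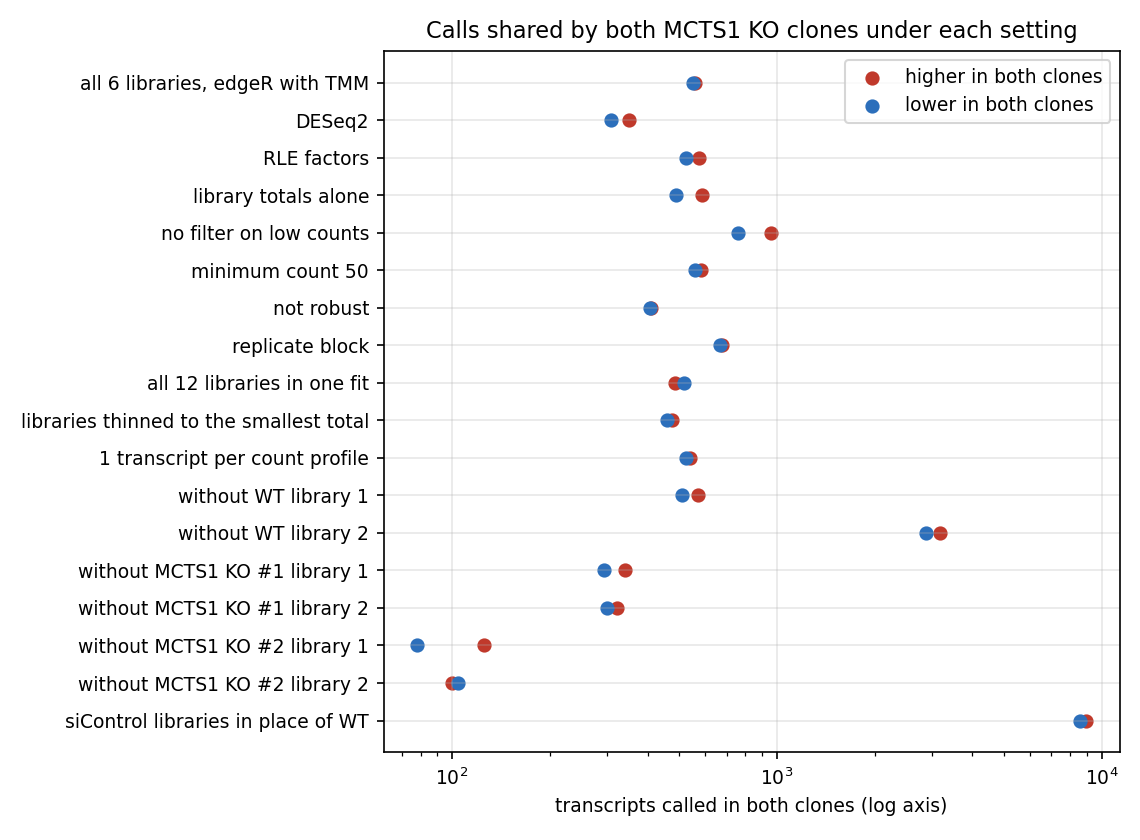
Number of transcripts higher (red) and lower (blue) in both MCTS1 KO clones (edgeR or DESeq2, adjusted p under 0.05) under each way of processing the counts, on a log axis. With all 6 libraries and edgeR the counts are 559 and 551. They span 78 to 3186 when 1 library is left out, and they are 8974 and 8562 with control siRNA libraries in place of WT.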

How the data were processed

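The deposited values are whole-number counts per versioned transcript identifier, made by the authors. The submitters' processing notes name STAR and cutadapt, then Subread and featureCounts, with no version, and list hg38 and GRCh38.p13 as builds. The handling of strand, duplicates and reads over several transcripts was not given in the sources used. Of the tested transcripts 4244 repeat the counts of another. The plan assumed gene names, and no table used here pairs these identifiers with genes, so its gene lists, chromosomes and 1-transcript-per-gene fit were not run.

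Counts were tested with edgeR 4.0.16 in R 4.3.3 (quasi-likelihood, robust, TMM, filterByExpr with minimum count 10, Benjamini-Hochberg adjustment over all tested transcripts), with each group a coefficient. Contrasts were the mean of both clones and each clone minus WT, and clone #1 minus clone #2. RNA-seq, TCP-seq (WT libraries 3 and 4, which the submitters' library numbering puts directly before the KO libraries; no label names a batch, and WT libraries 1 and 2 were not used) and siDENR Ribo-seq had fits of their own. Standard errors were derived from the F statistic and the log2 change. CPM uses library totals. Transcripts were put in a group of shared reads where replicate deviations of log2(CPM + 0.5) correlated above 0.95. The test was tried on simulated counts. Named transcripts are the 2 rises and 2 falls with the largest change in the clone that changed less, among those called in the mean and in each clone with 1 sign and at least 5 CPM, identical profiles counted once. The comparison, rules and lists were chosen with earlier results of these data known. DESeq2 1.42.0, other scalings, filters, thinning, the block and left-out libraries were alternatives, and the control siRNA exchange was added after the data had been seen.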

Additional observations from a re-analysis of the deposited data

Results flagged for a closer look

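The 2 MCTS1 KO clones differ from each other in Ribo-seq. In clone #1 minus clone #2, 21453 transcripts had an adjusted p under 0.05 (edgeR), more than the 19218 and 4178 called in clone #1 and clone #2 against WT. Among the named transcripts, ENST00000537408.1 rose more in clone #1, by 0.42 on the log2 scale, with 10.5 ± 0.771 CPM in clone #1 and 7.74 ± 0.0566 CPM in clone #2, against 4.00 ± 0.29 CPM in WT (SD, n = 2 each). ENST00000371315.3 fell less in clone #1, with a difference of 0.40, at 4.08 ± 0.099 CPM in clone #1 and 3.07 ± 0.488 CPM in clone #2, against 23.4 ± 1.34 CPM in WT (SD, n = 2 each). Each was flagged here by the test of the difference between the clones, among transcripts already named for their change against WT. The libraries of clone #1 are also the deepest of the 6, and the part of depth in the differences between clones was not tested.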

How the results depend on the processing

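In the mean of the clones, the 4 named transcripts kept their sign in all 17 alternatives. In the 11 alternatives that left out no library, they also stayed past the threshold. Over the 17, log2 changes were 0.42 to 1.19 for ENST00000455134.1 and 0.77 to 1.22 for ENST00000537408.1. They were -3.16 to -2.74 for ENST00000493274.5 and -2.82 to -2.55 for ENST00000371315.3. The 4 were chosen as the largest shared changes in these same libraries, which favours this outcome. Their calls in each clone alone were not followed across the alternatives. Numbers of calls depended on the processing. With 1 library left out (a lone library is assumed to vary like the other groups), calls for the mean of the clones spanned 1044 to 7454 higher and 1489 to 7947 lower, those in both clones 100 to 3186 higher and 78 to 2883 lower, those in clone #1 9303 to 23069 and those in clone #2 938 to 12817. The cause of these spans was not tested. DESeq2 called 1925 higher and 2304 lower in the mean, 350 and 308 in both clones and 10300 in clone #1, and the cause was not tested. With no filter, which tests more transcripts, 4940 were higher in the mean and 957 in both. Thinning, which lowers the counts, left 12595 calls in clone #1. With control siRNA libraries in place of WT, 18119 were higher and 19191 lower in the mean, 8974 and 8562 in both clones, and 42176 and 26905 were called in clone #1 and clone #2. The cause was not tested. Other scalings, filters, fits and repeats kept every count within 1.5 times. With the replicate block 3699 were higher and 4558 lower in the mean and 676 and 667 in both, and deviations of same-numbered libraries correlated at only 0.12, 0.098 and -0.022, so the numbers were not taken to pair the libraries.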

Other observations

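Control siRNA libraries were put in place of WT for the 1110 transcripts called the same way in both clones. Of the 1102 tested in that comparison, 983 (89.2%) had the same sign in both clones and 693 (62.9%) were called the same way in both. The KO libraries are the same in both comparisons, so these shares are a description. Knockout and absence of transfection cannot be told apart in the comparison with control siRNA cells.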
